A study of Homo sapiens with 8 samples.

Results

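The 10 genes described here are regulators of the epithelial-mesenchymal transition (EMT), followed through nickel exposure and after nickel had been removed. They were chosen by name, as the rows of the deposited tables for ZEB1, ZEB2, SNAI1, SNAI2, TWIST1, TWIST2, ESRP1, ESRP2, OVOL1 and GRHL2, and make up 10 of the 25411 genes listed. RNA was measured by RNA-Seq in BEAS-2B, a human bronchial epithelial line that was immortalised. There were 4 groups with 2 biological replicates in each. The control was untreated (UT), and nickel-exposed cells (Ni-E) grew for 6 weeks with 100 µM of the soluble salt NiCl2. Washed-out cells (Ni-W) had that exposure, were plated at low density without nickel, and came from a randomly picked population that had grown out of a single colony and had been without nickel for more than 6 months. HCl3 shared the treatment text of Ni-W, but its labels gave no time without nickel and no relation to Ni-W. All 4 groups are the same cell line, each washed-out group may stand for 1 clone, and the labels put both Ni-E libraries in experiment 2 and the HCl3 libraries in experiments 3 and 4, with no number for UT and Ni-W, so that group, clone and experiment cannot be told apart.

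EMT is the change in which epithelial cells give up their junctions and polarity and take on the shape and motility of mesenchymal cells. ZEB1 and ZEB2, SNAI1 and SNAI2 (Snail and Slug), and TWIST1 and TWIST2 are transcription factors that drive it, largely by binding E-box motifs in the promoters of epithelial genes such as CDH1 and repressing them. OVOL1 and GRHL2 are transcription factors that hold cells in the epithelial state, and ESRP1 and ESRP2 are RNA-binding proteins that set epithelial patterns of splicing. ZEB factors and miRNAs of the miR-200 family are known to repress each other, through E-boxes before the miRNA genes and through sites for the miRNAs in the 3′UTR of ZEB1 and ZEB2.

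The mature miR-200 sequences are shown because their seeds, the bases that pair with a target, define which messages they bind. All 5 main strands were found in RefSeq (GRCh38.p14). Capitals mark the seed, bases 2 to 8, and the family falls into 2 seed classes that differ by a single base of the seed.
hsa-miR-200b-3p: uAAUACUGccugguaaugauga
hsa-miR-200c-3p: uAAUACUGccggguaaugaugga
hsa-miR-429: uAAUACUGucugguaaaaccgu
hsa-miR-200a-3p: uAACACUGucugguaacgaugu
hsa-miR-141-3p: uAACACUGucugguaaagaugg

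A match to a seed of the first class reads CAGTATT in a message and one to the second class reads CAGTGTT. These letters were searched in the sense strand of the 3′UTR of the main GENCODE 44 transcript of each of the 10 genes, in GRCh38, whereas the deposited tables use hg19. The 3′UTR of ZEB1, 2540 bases long, held CAGTATT 6 times and CAGTGTT 3 times. Among 4574 other 3′UTRs of at least that length, cut to their first 2540 bases, 27.4% held CAGTATT at least once and 0 held it 6 times, and 0.918% held CAGTGTT 3 times or more. The 3′UTR of ZEB2, 5370 bases long, held CAGTATT 5 times and CAGTGTT 4 times. Among 1120 others of at least that length, cut likewise, 47.4% held CAGTATT at least once and 0 held it 5 times. CAGTGTT was held at least once by 50.8% and 4 times or more by 0.982%. SNAI2 held CAGTATT once, GRHL2 held CAGTGTT once and ESRP1 held each of them once. Among other 3′UTRs of at least their lengths, 13.2% held the match of SNAI2 at least once and 35.25% that of GRHL2. For ESRP1 the shares were 17.8% for CAGTATT and 19.97% for CAGTGTT. SNAI1, TWIST1, TWIST2, ESRP2 and OVOL1 held neither. A match is a run of letters and not a proven site. The first match of each class in the 2 ZEB genes is shown with the match in capitals, at chr10:31527622-31527651 and chr10:31528035-31528064 on the plus strand for ZEB1 and chr2:144389041-144389070 and chr2:144389225-144389254 on the minus strand for ZEB2.
ZEB1, first class: ttttatcttatCAGTATTatcactcttatg
ZEB1, second class: atcatcagaatCAGTGTTtgtgattgtgtt
ZEB2, first class: ctaccatacatCAGTATTtttattattatt
ZEB2, second class: aaaattttgtaCAGTGTTaaggcctaaaaa

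The DNA before the starts of ZEB1, ZEB2 and TWIST2 is shown because ZEB and Snail factors bind the E-box CAGGTG. RefSeq sequence (GRCh38.p14) before the start was at hand for these 3 members, and CAGGTG was searched on both strands (CACCTG on the other) in the 250 bases before each start. ZEB1 has 7 annotated starts, 2 of which had an E-box, and the first of them is shown, with the E-box in capitals 57 bases before the start. ZEB2 and TWIST2 had none in this window, which says only that these letters are absent there. Of 35116 such windows over all genes, 17.5% held the motif. The 250 bases before the first ZEB1 start held 15 CpG dinucleotides, but over the 7 ZEB1 starts the number ran from 7 to 27. Those before ZEB2 held 12 and those before TWIST2 26, both inside that range. The windows shown are chr10:31318167-31318416 on the plus strand, chr2:144520120-144520369 on the minus strand and chr2:238847835-238848084 on the plus strand.
ZEB1, before the first start: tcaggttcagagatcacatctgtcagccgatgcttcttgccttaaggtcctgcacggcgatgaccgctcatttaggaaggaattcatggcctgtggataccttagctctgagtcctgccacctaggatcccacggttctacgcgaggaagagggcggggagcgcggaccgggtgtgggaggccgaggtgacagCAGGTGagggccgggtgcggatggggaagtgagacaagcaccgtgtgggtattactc
ZEB2, before the start: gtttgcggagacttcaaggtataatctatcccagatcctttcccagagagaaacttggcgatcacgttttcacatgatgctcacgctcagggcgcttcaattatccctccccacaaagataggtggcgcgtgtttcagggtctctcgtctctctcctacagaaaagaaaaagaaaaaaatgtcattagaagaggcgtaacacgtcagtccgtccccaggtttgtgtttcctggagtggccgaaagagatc
TWIST2, before the start: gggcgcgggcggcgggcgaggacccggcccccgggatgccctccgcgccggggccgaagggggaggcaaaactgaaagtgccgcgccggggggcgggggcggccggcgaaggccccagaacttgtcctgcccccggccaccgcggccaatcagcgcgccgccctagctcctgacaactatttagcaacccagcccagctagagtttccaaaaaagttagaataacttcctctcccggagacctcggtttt

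Libraries held between 26383920 and 45692298 counted reads, so that 3 reads, taken as the floor of detection, correspond to between 0.0657 and 0.114 CPM (reads scaled to library size). The labelled epithelial identity was set against 7 epithelial markers. KRT7, KRT8 and KRT18, keratins of simple epithelium, were between 144.5 and 481 RPKM (reads scaled to transcript length and library size) in each library, whereas KRT5, a basal keratin, had at most 3 reads in any library and KRT19 at most 1 read in UT and Ni-E. The 7 epithelial markers summed to 602 to 636 RPKM in UT, 579 to 794 in Ni-E, 947 to 972 in Ni-W and 935 to 996 in HCl3, with KRT7 and KRT19 called higher than UT in both washed-out groups. CDH1 (E-cadherin), the defining adhesion protein of epithelium, had between 2 and 18 reads. Of 7 fibroblast markers, 4 to 5 were above the floor in a group, and their summed level was 358.5 to 413.5 RPKM in UT, 189 to 354 in Ni-E, 243 to 269 in Ni-W and 461 to 484 in HCl3. COL1A1 held most of it, while DCN was at or under 3 reads in all 8 libraries. Endothelial markers summed to at most 0.160 RPKM, with VWF called higher than UT in Ni-W and KDR in HCl3. PTPRC was at or under the floor in UT and Ni-E, and CD3E was at or under the floor in each group. The 6 immune markers summed to 17.3 to 22.9 RPKM, of which CD68 held most (14.3 to 21.8). CD14 was called higher than UT in both Ni-W and HCl3. In bulk samples fewer cells of a type and less RNA per cell cannot be told apart, and the part of these markers in the results that follow was not tested.

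Of the 10 regulators 6 promote EMT, and all 6 were expressed in UT. They ranked in mean level from ZEB2 (17.9 RPKM) through TWIST1 (3.15), TWIST2 (1.34), ZEB1 (1.12) and SNAI1 (0.405) to SNAI2 (0.290), with overlapping library ranges for TWIST2 and ZEB1 only. Of the 4 epithelial regulators, ESRP2 was at 0.150 RPKM, and ESRP1, OVOL1 and GRHL2 had at most 4 reads in any library. ESRP2 had 27 and 17 reads in UT, much like SNAI2 with 29 and 16. The length implied by counts, RPKM and library totals was about 4499 bases for ESRP2 and 2359 for SNAI2. A gene was called changed at an adjusted P value under 0.05 (DESeq2, Benjamini-Hochberg over all genes tested) and at least 1.5-fold. Of the 7 members that could be tested, Ni-E against UT called 2, with ZEB1 higher and ZEB2 lower, where 5.8% of all genes tested were called. Ni-W against UT called 2 of 7, ZEB1 and SNAI2, both higher, against a background of 15.7%. HCl3 against UT called 5 of 7, namely ZEB1, SNAI1, SNAI2, TWIST2 and ESRP2, all higher, against 14.8%. Ni-W against Ni-E called 3 of 8 (SNAI2, TWIST1 and ESRP2, all higher in Ni-W) against 20.5% (11.7% higher and 8.81% lower), and HCl3 against Ni-W called ESRP2 alone of 7, higher in HCl3, against 4.77% (3.1% higher and 1.66% lower). The median log2 fold change of the members tested against UT was -0.02 for Ni-E, 0.69 for Ni-W and 1.39 for HCl3, where the median of all genes tested was -0.00, 0.01 and 0.01. Ni-W and HCl3 were set against the same UT libraries, so these 2 comparisons are not independent.

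**Figure D1:**
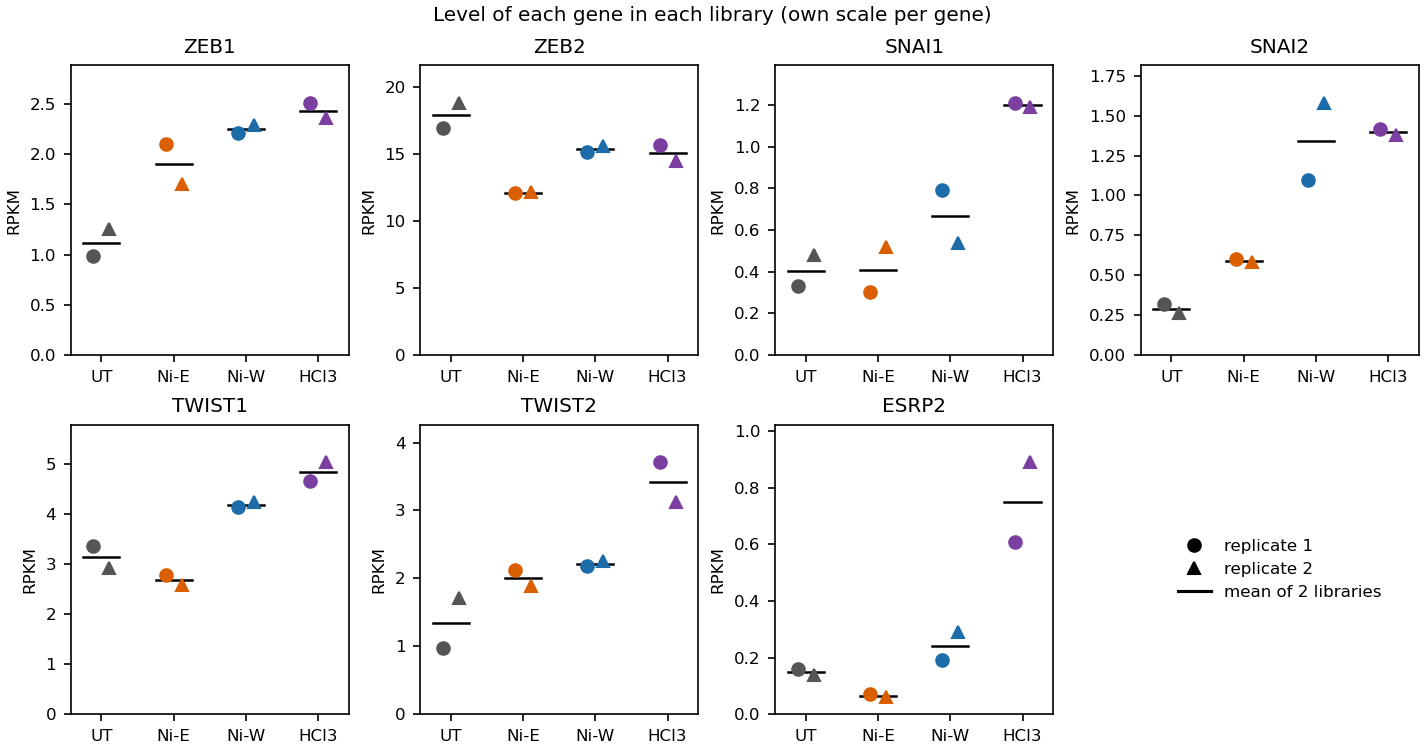
RPKM of the 7 regulators with more than 3 reads in every library (vertical axis, its own scale per gene, from 0) in the 4 groups (horizontal axis). Circles and triangles are the 2 libraries of a group and the bar is their mean; both UT libraries of ZEB1 (0.990 and 1.25) lie below all 6 nickel libraries, and ESRP2 is highest in HCl3 (0.610 and 0.890).

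**Figure D2:**
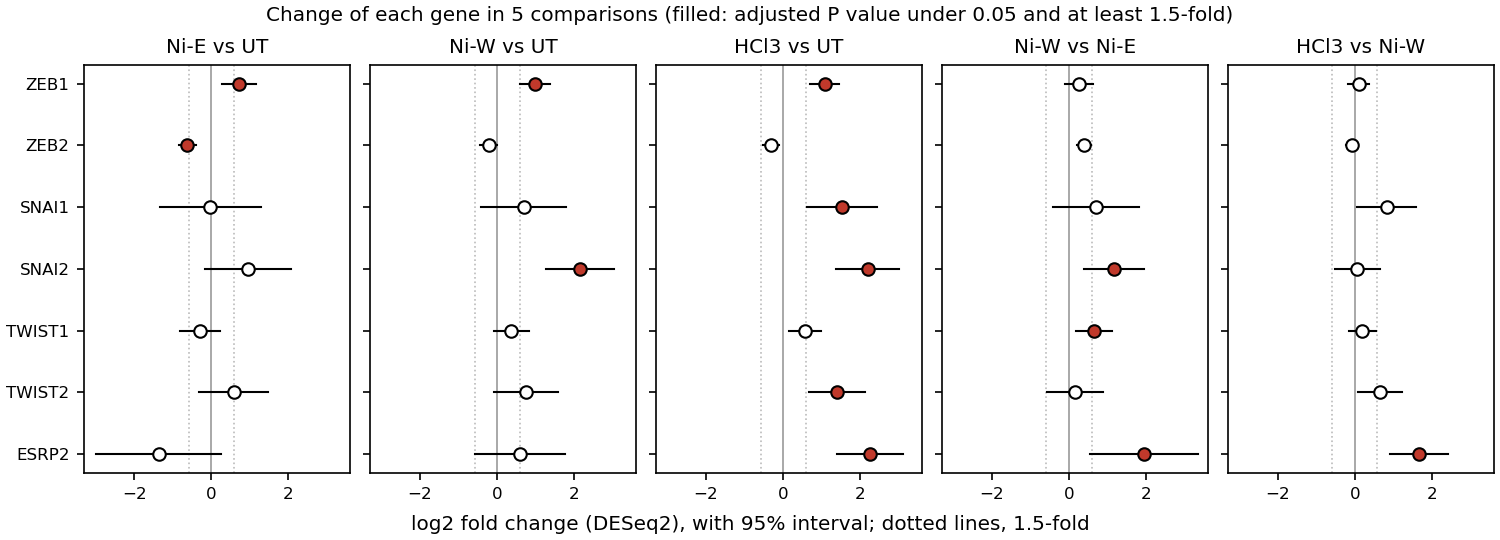
Log2 fold change of the same 7 genes (horizontal axis, DESeq2, with 95% intervals as lines) in the 5 comparisons, 1 panel each, with dotted lines at 1.5-fold. Filled points were called; the filled points number 2 in Ni-E against UT, 2 in Ni-W against UT, 5 in HCl3 against UT, 3 in Ni-W against Ni-E and 1 in HCl3 against Ni-W.

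ZEB1 (chromosome 10, 31610064 to 31818742, plus strand, hg19), a zinc-finger and homeodomain repressor of epithelial genes, was measured at 0.990 and 1.25 RPKM in UT. It was at 2.10 and 1.70 in Ni-E, at 2.21 and 2.29 in Ni-W, and at 2.51 and 2.36 in HCl3, from between 218 and 672 reads a library. Both UT libraries were below every other library, and Ni-E lay below Ni-W and HCl3 with no shared range. Against UT, DESeq2 gave a 1.64-fold rise for Ni-E (0.72 ± 0.23 SE as log2 fold change, with an adjusted P value of 0.0194), 1.99-fold for Ni-W (0.99 ± 0.20, 8.44e-06) and 2.12-fold for HCl3 (1.08 ± 0.19, 2.19e-07). ZEB1 was not called between Ni-W and Ni-E (log2 fold change 0.26, 95% interval -0.10 to 0.61) or between HCl3 and Ni-W (0.09, -0.18 to 0.37). The call in Ni-E ended when any 1 of the 4 libraries was left out: the log2 fold change was then 0.54 (adjusted P value 0.347) without UT replicate 1, 0.90 (0.0754) without UT replicate 2, 0.54 (0.600) without Ni-E replicate 1 and 0.88 (0.122) without Ni-E replicate 2. The calls in Ni-W and HCl3 held in each alternative that was run.

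ZEB2 (chromosome 2, 145268952 to 145277958, minus strand), which has the same domain plan and binds the same motif, was by far the most abundant of the inducers. Its 2 UT libraries were at 16.9 and 18.8 RPKM, Ni-E at 12.1 and 12.2, Ni-W at 15.1 and 15.6, and HCl3 at 15.7 and 14.5, from between 3872 and 6660 reads. Ni-E was the lowest group and UT the highest, with Ni-W and HCl3 between them and overlapping each other. ZEB2 fell in Ni-E against UT, 1.54-fold lower (log2 fold change -0.62 ± 0.11, adjusted P value 3.71e-06, DESeq2). In HCl3 it was 1.24-fold lower than in UT (-0.31 ± 0.10, adjusted P value 0.00982) and in Ni-W 1.31-fold higher than in Ni-E (0.38 ± 0.09, 0.000242), both short of 1.5-fold, and in Ni-W against UT it missed the threshold (-0.22, 95% interval -0.44 to -0.01, adjusted P value 0.106). The fall in Ni-E was just past 1.5-fold and dropped below it without UT replicate 2 (log2 fold change -0.54) and after removal of the trends along GC content and length (-0.40, adjusted P value 0.00026). Log2 fold changes in Ni-E rose with transcript GC content (Spearman's rho 0.340 over genes, and -0.485 between the 2 UT replicates), and the ZEB2 transcript has 39.1% GC. They also rose with it in HCl3 against UT (0.271) and against Ni-W (0.344). SNAI1, TWIST2 and ESRP2, each called higher in HCl3 against UT, have 57.5 to 58.4% GC. ZEB1 and SNAI2, called higher in the same comparison, have 38.4 and 41.4%. In Ni-E against UT, ZEB1 was called higher and ZEB2 lower, at 38.4 and 39.1% GC. With GC and length trends removed, the members called in HCl3 against UT and against Ni-W still numbered 5 and 1. The span listed for ZEB2, 9007 bases, is shorter than its longest transcript in GENCODE 44, of 9583 bases. The length implied by its counts, RPKM and library totals was about 9402 bases.

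The ratio of ZEB1 to ZEB2 was taken within each library, where depth cancels. ZEB1 was at 0.0584 and 0.0665 of the level of ZEB2 in UT, at 0.174 and 0.140 in Ni-E, at 0.146 and 0.147 in Ni-W, and at 0.160 and 0.163 in HCl3. The ratio was higher in all 6 nickel libraries than in either UT library, and the 3 nickel groups overlapped one another only through the spread of Ni-E. With 2 libraries against 2, an exact two-sided permutation test of such a ratio cannot go below 0.333, so none was run. The summed RPKM of the 6 inducers stood at 22.9 and 25.4 in UT, at 19.97 and 19.4 in Ni-E, at 25.5 and 26.5 in Ni-W, and at 29.2 and 27.6 in HCl3. The share of that sum that belonged to ZEB2 was 73.9% in both UT libraries, then 60.4 and 62.6% for Ni-E, 59.2 and 58.9% for Ni-W, and 53.7 and 52.6% for HCl3.

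**Figure D3:**
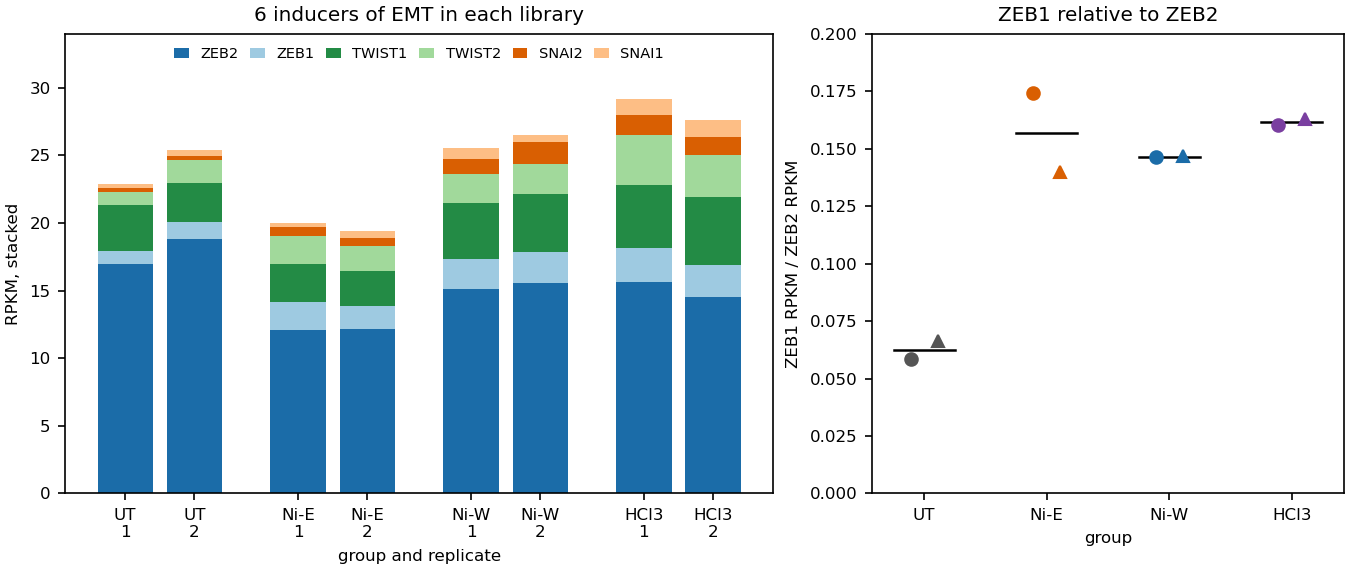
Left, RPKM of the 6 inducers of EMT stacked in each of the 8 libraries (vertical axis in RPKM from 0; ZEB2 is the lowest block). Right, ratio of ZEB1 RPKM to ZEB2 RPKM in each library, with the mean of each group as a bar; UT lies at 0.0584 and 0.0665 and all nickel libraries lie at or above 0.140.

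SNAI1 (chromosome 20, 48599513 to 48605420, plus strand), or Snail, a short-lived zinc-finger repressor of CDH1, was expressed at low levels throughout. It was at 0.330 and 0.480 RPKM in UT, at 0.300 and 0.520 in Ni-E, at 0.790 and 0.540 in Ni-W, and at 1.21 and 1.19 in HCl3, from between 20 and 87 reads. UT and Ni-E overlapped, Ni-W lay above both, and HCl3 lay above all other libraries. SNAI1 rose in HCl3 against UT, 2.88-fold (log2 fold change 1.53 ± 0.46, adjusted P value 0.00443, DESeq2). The threshold was missed in Ni-W against UT (0.69, 95% interval -0.41 to 1.79) and in Ni-E against UT (-0.02, -1.33 to 1.28), and also between HCl3 and Ni-W (0.83, 0.07 to 1.59, adjusted P value 0.140). The call in HCl3 was lost without UT replicate 1 (1.27, adjusted P value 0.119), without HCl3 replicate 1 (1.51, 0.249) and without HCl3 replicate 2 (1.53, 0.245). In edgeR the difference between HCl3 and Ni-W was called (log2 fold change 0.81, adjusted P value 0.0356).

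SNAI2 (chromosome 8, 49830239 to 49833999, minus strand), or Slug, a relative of Snail that is also found in basal epithelial cells, showed the largest increases among the inducers. It was at 0.320 and 0.260 RPKM in UT, at 0.600 and 0.580 in Ni-E, at 1.10 and 1.58 in Ni-W, and at 1.42 and 1.38 in HCl3. It was counted in 29 and 16 reads of the UT libraries, 49 and 47 of Ni-E, 119 and 116 of Ni-W, and 123 and 125 of HCl3. Ni-E lay between UT and the washed-out groups with no overlap on either side, and Ni-W spanned the HCl3 libraries. The rise from UT was 4.43-fold for Ni-W (2.15 ± 0.45 as log2 fold change, DESeq2 adjusted P value 1.75e-05) and 4.58-fold for HCl3 (2.19 ± 0.42, 2.12e-06), and Ni-W was 2.26-fold above Ni-E (1.17 ± 0.39, 0.00951). In Ni-E against UT the log2 fold change of 0.96 (95% interval -0.16 to 2.08) missed the threshold at an adjusted P value of 0.312, and HCl3 and Ni-W differed by 0.06 (-0.53 to 0.64). Without Ni-W replicate 2 the call in Ni-W against UT was lost (1.87, adjusted P value 0.0897), whereas the call in HCl3 held in each alternative that was run. The call of Ni-W against Ni-E was lost without any 1 of its 4 libraries, at adjusted P values of 0.0801 and 0.1003 without Ni-E replicates 1 and 2 and 0.0944 and 0.393 without Ni-W replicates 1 and 2.

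TWIST1 (chromosome 7, 19155091 to 19157295, minus strand), a basic helix-loop-helix factor of the embryonic mesoderm and neural crest, was the second most abundant inducer in each group. It was at 3.37 and 2.93 RPKM in UT, at 2.78 and 2.58 in Ni-E, at 4.15 and 4.24 in Ni-W, and at 4.66 and 5.04 in HCl3. The 4 groups did not overlap, with Ni-E lowest, then UT, Ni-W and HCl3. TWIST1 was 1.57-fold higher in Ni-W than in Ni-E (0.65 ± 0.23 as log2 fold change, DESeq2 adjusted P value 0.0161). In HCl3 against UT it had an adjusted P value of 0.0314 but was 1.48-fold higher, just short of the fold threshold, and limma with a pseudocount of 0.1 called it (0.61, adjusted P value 0.0390). The threshold was missed in Ni-W against UT (0.37, 95% interval -0.07 to 0.82) and in Ni-E against UT (-0.29, -0.81 to 0.22). The call of Ni-W against Ni-E was lost without any 1 of its 4 libraries, at adjusted P values of 0.0839 and 0.181 without Ni-E replicates 1 and 2 and 0.240 and 0.255 without Ni-W replicates 1 and 2.

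TWIST2 (chromosome 2, 239756673 to 239832244, plus strand), a close relative of TWIST1 known from dermal fibroblasts, was at 0.970 and 1.71 RPKM in UT and 2.13 and 1.89 in Ni-E. It was at 2.18 and 2.25 in Ni-W, then at 3.71 and 3.12 in HCl3, from between 40 and 154 reads a library. The UT libraries stood further apart than those of any other group, both were the lowest of the 8, and both HCl3 libraries were the highest. TWIST2 rose 2.63-fold in HCl3 against UT (log2 fold change 1.39 ± 0.37, adjusted P value 0.00108, DESeq2). Neither Ni-E (0.58, 95% interval -0.31 to 1.47) nor Ni-W (0.75, -0.08 to 1.58) differed from UT by a call. HCl3 against Ni-W gave 0.64 (0.08 to 1.21, adjusted P value 0.116), which edgeR called (0.64, 0.0237). The call in HCl3 was lost without UT replicate 1 (1.03, adjusted P value 0.0894), without HCl3 replicate 1 (1.27, 0.219) and without HCl3 replicate 2 (1.49, 0.110).

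ESRP2 (chromosome 16, 68262450 to 68270136, minus strand), an epithelial splicing regulator that favours the epithelial exon of FGFR2 and CD44, was the only epithelial member above the floor in each library. It was at 0.160 and 0.140 RPKM in UT, at 0.070 and 0.060 in Ni-E, at 0.190 and 0.290 in Ni-W, and at 0.610 and 0.890 in HCl3. These rest on 27 and 17 reads for UT, 10 and 9 for Ni-E, 39 and 40 for Ni-W, and 101 and 154 for HCl3. The 4 groups did not overlap, and their order was Ni-E, UT, Ni-W and HCl3, the same as for TWIST1. ESRP2 was 4.76-fold higher in HCl3 than in UT (log2 fold change 2.25 ± 0.43, adjusted P value 2.27e-06, DESeq2), 3.18-fold higher in HCl3 than in Ni-W (1.67 ± 0.38, 0.000226) and 3.85-fold higher in Ni-W than in Ni-E (1.94 ± 0.72, 0.0203). The threshold was missed against UT by both Ni-E (-1.35, 95% interval -2.97 to 0.27) and Ni-W (0.60, -0.57 to 1.77). Without HCl3 replicate 2 the calls of HCl3 against UT (1.95, adjusted P value 0.0862) and against Ni-W (1.36, 0.335) were lost, and the latter also without Ni-W replicate 1 (1.37, 0.0744). The call of Ni-W against Ni-E was lost without any 1 of its 4 libraries, at adjusted P values of 0.110 and 0.137 without Ni-E replicates 1 and 2 and 0.179 and 0.431 without Ni-W replicates 1 and 2. The last bases of ESRP2 overlap NFATC3 on the opposite strand, and strand use in counting was not stated. NFATC3 was at 9.58 to 12.4 RPKM with no call in any comparison, and its log2 fold change was -0.23 in HCl3 against UT and 0.00 in HCl3 against Ni-W.

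ESRP1 (chromosome 8, 95653364 to 95719694, plus strand), the relative of ESRP2 that dominates in most epithelia, had 0 reads in both UT libraries. It had 2 and 2 reads in Ni-E, 0 and 4 reads in Ni-W, and 2 and 0 reads in HCl3, and Ni-W replicate 2 was the one library above the floor of 3 reads. OVOL1 (chromosome 11, 65554505 to 65564690, plus strand), a zinc-finger factor that represses ZEB1 in epithelia, had 1 read in all 8 libraries together, in Ni-E replicate 2. GRHL2 (chromosome 8, 102504668 to 102681952, plus strand), an activator of CDH1 and other junction genes and a repressor of ZEB1, had 0 reads in all 8 libraries. A count of 0 allows a level of up to 0.0657 to 0.114 CPM at these depths, for counting error only. A difference between groups near or under that level was not detectable for these 3 genes, and no fold change is given. None of the 3 rose above 4 reads in any library.

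The miR-200 genes were counted with the other genes, although libraries of this kind do not capture mature miRNAs. MIR200A, MIR200C, MIR141, MIR429, MIR205 and MIR205HG had 0 reads in all 8 libraries and MIR200B had 1 read, in Ni-W replicate 2, so the opposing arm of the ZEB loop could not be followed. ZEB1-AS1, a transcript that starts next to ZEB1 on the other strand (chromosome 10, 31605457 to 31608024), was at 0.360 and 0.440 RPKM in UT, at 0.770 and 0.790 in Ni-E, at 0.640 and 0.520 in Ni-W, and at 1.04 and 0.870 in HCl3. It was above UT in all 6 nickel libraries, as ZEB1 was, and was called in HCl3 against UT (2.29-fold higher, adjusted P value 0.0206, DESeq2). ZEB2-AS1, which overlaps ZEB2 on the opposite strand, had 0 reads in all 8 libraries.

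Of the usual readouts of EMT, CDH1 was at 0.050 and 0.010 RPKM in UT, at 0.090 and 0.080 in Ni-E, at 0.070 and 0.110 in Ni-W, and at 0.050 and 0.070 in HCl3, and was not called in any comparison. EPCAM, an adhesion molecule of epithelial cells, was at 0.990 and 0.950 in UT, at 1.45 and 1.46 in Ni-E, at 1.79 and 1.45 in Ni-W, and at 1.17 and 1.26 in HCl3, again with no call in DESeq2. CDH2 (N-cadherin), the mesenchymal counterpart of CDH1, was already at 64.1 and 74.2 RPKM in UT and at 54.1 to 83.5 in the other libraries, with no call. VIM (vimentin) was lower than UT in Ni-E (log2 fold change -0.74) and Ni-W (-0.73) and was not called in HCl3. Its counts may include reads of VIM-AS1 on the opposite strand, as strand use in counting was not stated. FN1 (fibronectin), a matrix protein, was at 4.13 to 6.99 RPKM in UT and Ni-E and 82.1 to 121 in Ni-W and HCl3.

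Relatives and partners of the members form the first of 8 wider lists. Of 12 of them, 9 to 10 were tested in a comparison. ID1 and ID2, which tie up the partners of TWIST proteins and so keep them from DNA, both rose in Ni-W against UT, where 10.9% of all genes tested rose. ID2 was at 5.56 and 5.35 RPKM in UT, at 3.19 and 3.68 in Ni-E, at 18.9 and 17.5 in Ni-W, and at 13.1 and 12.3 in HCl3. ID2 fell in Ni-E (-0.72 ± 0.24 as log2 fold change, DESeq2 adjusted P value 0.0270) and rose in Ni-W (1.70 ± 0.16, 1.44e-23) and HCl3 (1.16 ± 0.17, 1.16e-10). ID1 rose by a log2 fold change of 0.73 ± 0.15 in Ni-W and 0.72 ± 0.15 in HCl3. GRHL1, a relative of GRHL2, was at 0.900 and 1.02 RPKM in UT, at 0.380 and 0.360 in Ni-W, then at 0.410 and 0.550 in HCl3, and fell in both against UT (-1.42 ± 0.35, adjusted P value 0.000347, and -1.04 ± 0.33, 0.00749). It was the 1 gene of the list that fell in those comparisons, where 4.83 and 3.74% of all genes tested did.

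Of 14 other transcription factors of the epithelial state, 5 of 10 tested were higher in Ni-W than in UT and 5 of 10 in HCl3 (DESeq2), with 0 lower, where 10.9 and 11.1% of all genes tested were higher. In either direction edgeR called 5 in each comparison and limma 2 with a pseudocount of 1 and 5 with 0.1, and 6 and 7 had an unadjusted P value under 0.05. Over all genes tested, 6149 of 15826 and 6243 of 15766 had such a P value (DESeq2). ELF3, an epithelial ETS factor, was at 4.66 and 3.27 RPKM in UT, at 2.29 and 6.38 in Ni-E, at 17.9 and 14.5 in Ni-W, and at 9.18 and 10.3 in HCl3. It rose in Ni-W (1.99 ± 0.17 as log2 fold change, DESeq2 adjusted P value 1.28e-28) and HCl3 (1.24 ± 0.17, 1.02e-11), and was lower in HCl3 than in Ni-W (-0.75 ± 0.12, 1.69e-08). FOXA1, a pioneer factor of endodermal epithelia, rose in Ni-W (1.13 ± 0.40, 0.0200) and HCl3 (1.17 ± 0.39, 0.0131), from 0.280 and 0.380 RPKM in UT to 0.720 and 0.760 in Ni-W, or 0.830 and 0.690 in HCl3. NKX2-1 and GATA6, named here after their values were seen, were the other members higher in both. In Ni-E 1 of 8 tested was higher (TFAP2C) and 1 lower (TFAP2A), where 3.75 and 2.05% of all genes tested were, while limma called 0 of any list in Ni-E.

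Junction and polarity genes include classic targets of the ZEB and Snail repressors. Of 26 on the list, 7 of 24 tested were higher and 1 (OCLN, occludin) lower in Ni-W against UT, where 10.9% of all genes tested were higher and 4.83% lower. In HCl3 7 of 23 were higher and 0 lower (DESeq2), against 11.1 and 3.74% of all genes, and in Ni-E 4 of 21 were higher and 0 lower, against 3.75 and 2.05%. Over all genes, too, more were called higher than lower in each of these comparisons. DSP (desmoplakin), a plaque protein of desmosomes, was at 0.230 and 0.340 RPKM in UT, at 2.19 and 1.93 in Ni-E, at 5.49 and 5.72 in Ni-W, and at 8.31 and 8.49 in HCl3. SPINT1, an inhibitor of epithelial proteases, was at 5.46 and 5.02 in UT, at 12.2 and 11.6 in Ni-W, and at 7.32 and 7.88 in HCl3, and rose in Ni-W (1.14 ± 0.15 as log2 fold change, DESeq2 adjusted P value 4.84e-13). MAL2, which sorts proteins to the apical membrane, was at 0.200 and 0.190 in UT, at 0.050 and 0.020 in Ni-E, at 1.05 and 0.970 in Ni-W, and at 0.550 and 0.680 in HCl3, and rose in Ni-W (2.32 ± 0.44, 1.72e-06) and HCl3 (1.59 ± 0.50, 0.00637).

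On the mesenchymal side, 7 of 18 effector genes were higher and 2 lower in Ni-W against UT, where 10.9% of all genes tested were higher and 4.83% lower. In HCl3 9 were higher and 0 lower (DESeq2), against 11.1 and 3.74% of all genes, and in Ni-E 1 of 17 was higher and 4 lower, against 3.75 and 2.05%. CDH11, a mesenchymal cadherin, had 0 reads in UT, 1 read in each Ni-E library, 187 and 137 reads in Ni-W and 53 and 59 in HCl3, which made it at least 42.7-fold higher in Ni-W and 14.8-fold higher in HCl3 than a UT level of 3 reads per library (adjusted P values 5.17e-09 and 4.31e-06, DESeq2). COL5A1, a fibrillar collagen with a gene on its opposite strand, rose in Ni-W (log2 fold change 3.01 ± 0.13) and HCl3 (3.67 ± 0.11). The fibroblast markers, some of which are also on this list, had a summed level below UT in Ni-W and above it in HCl3, and their part in these counts was not tested. Of 11 other mesenchymal transcription factors, 3 of 8 tested were higher and 1 lower in Ni-W, and 2 of 6 were higher in HCl3, beside the same shares of all genes. SOX9, a factor of cartilage and of progenitor cells, was at 0.210 and 0.280 RPKM in UT, at 0.590 and 0.810 in Ni-W, and at 1.60 and 1.48 in HCl3, with log2 fold changes against UT of 1.47 ± 0.41 (adjusted P value 0.00226, DESeq2) and 2.60 ± 0.32 (1.62e-14). HMGA2, a chromatin protein with genes on its opposite strand, fell in Ni-W against UT (-1.42 ± 0.29, 1.63e-05) and was higher in HCl3 than in Ni-W (1.51 ± 0.25, 5.81e-08).

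**Figure D4:**
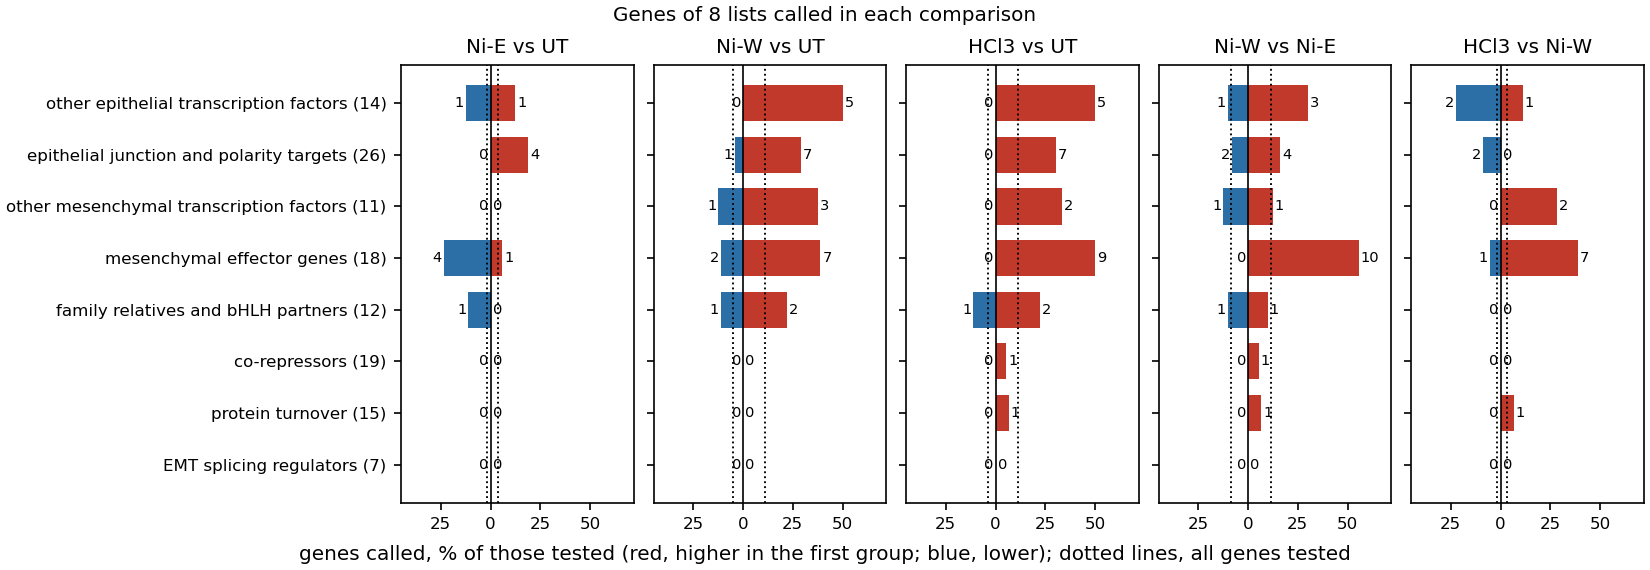
Genes called higher (red, right) or lower (blue, left) in each of 8 lists, as a percentage of the genes tested (horizontal axis) with the number of genes beside each bar, in the 5 comparisons; list sizes stand in brackets and dotted lines mark the percentage over all genes tested. The longer bars of epithelial and mesenchymal genes lie on the right in both Ni-W and HCl3 against UT. In each, 5 epithelial transcription factors and 7 junction genes were higher. In Ni-W against UT, 1 junction gene, 2 mesenchymal effectors and 1 mesenchymal transcription factor also lie on the left.

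Of 19 co-repressors, 3 in Ni-E and 10 in Ni-W against UT had an unadjusted P value under 0.05 (DESeq2). Over all genes tested, 3382 of 14478 and 6149 of 15826 had one. DESeq2 and edgeR called 0 co-repressors in either comparison, where 5.8 and 15.7% of all genes tested were called. In HCl3 against UT, 14.8% of all genes were. With no fold threshold, 3 co-repressors were higher and 5 lower in Ni-W, and 1 was lower in Ni-E (DESeq2). Over all genes such calls numbered 4917 and 1679. SIN3A, named here after its values were seen, was called in Ni-W against Ni-E (1.92-fold higher, DESeq2), where 20.5% of all genes were called. HDAC1, a histone deacetylase recruited by Snail, was at 80.5 to 86.9 RPKM in UT and Ni-E and 100.2 to 105 in Ni-W and HCl3. LOXL2, a lysyl oxidase that binds Snail and has a gene on its opposite strand, was at 61.2 and 56.3 RPKM in UT and 110 and 113 in HCl3 and was the 1 co-repressor called there (log2 fold change 0.87 ± 0.09, adjusted P value 4.41e-20, DESeq2). Of 15 genes that control the turnover of these proteins, DESeq2 called 0 and edgeR 1 in Ni-E and in Ni-W against UT. An unadjusted P value under 0.05 (DESeq2) was found for 2 and 4 of the 15, beside 3382 of 14478 and 6149 of 15826 over all genes. CTDSP1 was the 1 turnover gene called in HCl3. CSNK1E and COPS2, the most abundant of them, were at 39.1 to 52.1 and 25.9 to 37.3 RPKM, and the counts of CSNK1E may include a gene on the same strand. All 7 other splicing regulators of EMT were tested in each comparison, and DESeq2 and edgeR called 0 of them, while between 1 and 4 had an unadjusted P value under 0.05. Over all genes tested, such P values ran from 3382 of 14478 in Ni-E against UT to 7282 of 15989 in Ni-W against Ni-E. The most abundant splicing regulators, HNRNPM and PTBP1, were at 149 to 191 and 146 to 160 RPKM.

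The genes whose pattern over the 8 libraries was most like that of a member were found among 12014 genes, by the root-mean-square difference of centred log2 counts. This is a description over 8 libraries that share their groups. For ZEB1 these were FOXA1, at a difference of 0.0759 against a spread of 0.444 for ZEB1 itself, and FAM210B (0.127). For ZEB2 they were CCDC132 (0.0504) and ZNF326 (0.0520), against its own spread of 0.227. UNC13D (0.184) and ITGB3, an integrin subunit (0.196), were nearest to SNAI2, whose own spread was 0.910. STARD7-AS1 (0.0693) and IRS2, an adaptor of the insulin receptor (0.0721), were nearest to TWIST1, and MME, a membrane peptidase (0.200), and F2R, a thrombin receptor (0.207), to TWIST2, with own spreads of 0.336 and 0.543.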

How the data were processed

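RNA-Seq of 8 BEAS-2B libraries was analysed from the deposited tables, 1 per library. The authors aligned reads to hg19 with STAR 2.4, removed reads with several hits, and deposited counts per RefSeq gene and RPKM values rounded to 2 decimals. The counts were tested as deposited with DESeq2 1.42.0 (pairs of groups, two-sided Wald test, Benjamini-Hochberg adjustment over all genes tested), and levels are the deposited RPKM. Groups came from the labels. A group has 2 libraries, so adjusted P values rest on a spread shared across genes. Alternatives were edgeR 4.0.16 (also for TMM factors), limma 3.58.1 on log2 RPKM after adding a pseudocount of 1 or 0.1, a mean count of at least 10, all libraries in one fit, no fold threshold, a replicate block, removal of GC and length trends, and leaving out each library, where the lone library left in a group is taken to vary like the other group. DESeq2, edgeR, TMM factors, the removal of trends and the replicate block were tested on simulated counts, and the other alternatives were not. The genes changed there had a mean normalised count of at least 50 in UT. SNAI1, SNAI2 and ESRP2 lay below that, so counts as low as theirs were not covered. The members and lists were chosen with earlier results of these data known. Named genes of a list are up to 3 with the largest called change in Ni-W against UT at a mean normalised count of at least 50, or else the 2 with the highest RPKM, plus CDH1, EPCAM, CDH2, VIM and FN1. Some genes of the lists are not reported here.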

Additional observations from a re-analysis of the deposited data

Results flagged for a closer look

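ESRP2 differed between the washed-out populations. The log2 fold change of HCl3 against Ni-W was 1.67 ± 0.38 (adjusted P value 0.000226, DESeq2), with both HCl3 libraries (0.610 and 0.890 RPKM) above both Ni-W libraries (0.190 and 0.290 RPKM). The call was lost without Ni-W replicate 1 (1.37, adjusted P value 0.0744) and without HCl3 replicate 2 (1.36, 0.335). The labels number the HCl3 libraries as experiments 3 and 4 and give no number for Ni-W, so population and experiment cannot be told apart.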

How the results depend on the processing

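Of 13 called results of the members, 3 kept their call in each alternative (against UT, ZEB1 for Ni-W and HCl3 and SNAI2 for HCl3), and 0 changed direction. Over 179 combinations of a called result and an alternative the call held in 127 and was lost in 52, and where no value above shows the cause it was not tested. With no fold threshold the genes called numbered 1679 for Ni-E, 4917 for Ni-W and 4945 for HCl3, each against UT, 6274 for Ni-W against Ni-E and 2476 for HCl3 against Ni-W. With limma and a pseudocount of 1 they numbered 0, 1409, 1305, 1989 and 247, and with a pseudocount of 0.1 they numbered 0 in Ni-E against UT and 267 in HCl3 against Ni-W. The replicates share only a suffix, and the deviations of libraries with the same suffix correlated at -0.116, 0.222, -0.159, -0.107 and -0.0535 in the 5 comparisons. The replicate block gave 491 genes in Ni-E against UT and 455 in HCl3 against Ni-W, and 401 and 439 with GC and length trends also removed. Under the block 5 called results of the members were lost: ZEB1 in Ni-E against UT (adjusted P value 0.178), SNAI1 in HCl3 against UT (0.0796, or 0.082 with trends removed and 0.0574 with crossed pairs) and the 3 of Ni-W against Ni-E. Leaving out 1 library gave 356 to 620, 1516 to 2190, 1339 to 2109 and 327 to 530 genes for Ni-E, Ni-W and HCl3 against UT and for HCl3 against Ni-W. Members called in Ni-E against UT numbered 0 with either limma fit, 1 under the block, 1 with trends removed, 1 with both and 1 under the block with crossed pairs, which was chosen after seeing the data. In Ni-W against Ni-E they numbered 0 with limma and a pseudocount of 1, 0 under the block, 1 with block and trends removed and 0 under the crossed block, and in HCl3 against Ni-W 3 in edgeR and 0 with either limma fit. Leaving out 1 library gave 0 to 1, 1 to 2, 2 to 5, 0 and 0 to 1 members in the 5 comparisons. Among members not called, SNAI1 in Ni-E against UT ranged from -0.45 to 0.30 without 1 library, ZEB2 in HCl3 against Ni-W was at 0.0145 with trends removed and 0.0148 with the block added, and SNAI2 there ranged from -0.20 without Ni-W replicate 1 to 0.34 without Ni-W replicate 2. The low counts of SNAI1, SNAI2 and ESRP2 limit what 2 libraries a group can show.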
